A study of Homo sapiens with 9 samples.

Results

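The genes described here encode the subunits of the mitochondrial respiratory chain and ATP synthase, from both the nuclear and the mitochondrial genome. Members were chosen by symbol among genes with at least 1 protein-coding transcript: the NDUFA, NDUFB, NDUFC, NDUFS and NDUFV genes, SDHA to SDHD, all UQCR symbols, CYC1, all symbols starting with COX4 to COX8 or ATP5, and the mitochondrial ND, CO, ATP and CYB genes. This gave 104 of 58219 genes, 91 nuclear and 13 mitochondrial. The symbols also take in neighbours of the family in name only: ATP5S and ATP5SL are not subunits of the enzyme, and the readthrough loci ATP5J2-PTCD1 and NDUFC2-KCTD14 join a subunit gene to the next gene along the chromosome.

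The respiratory chain sits in the inner mitochondrial membrane. Complex I (NADH dehydrogenase) and complex II (succinate dehydrogenase) pass electrons to ubiquinone, complex III passes them to cytochrome c, and complex IV (cytochrome c oxidase) passes them to oxygen. Complexes I, III and IV pump protons as they do so, and complex V (ATP synthase) lets the protons back through a rotating ring to make ATP. Mitochondrial DNA encodes the membrane core of these pumps and the proton channel of ATP synthase, whereas complex II and the remaining subunits come from nuclear genes, so that the complexes are built from transcripts of both genomes. The mitochondrial mRNAs are cut from long precursor transcripts in which tRNAs lie between most of the genes. Carcinoma lines often ferment glucose even in oxygen, but most keep a working respiratory chain.

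The cells were MDA-MB-231, an established human line of a breast carcinoma without hormone receptors or amplified ERBB2. The study altered APT1, a thioesterase encoded by LYPLA1 that takes palmitate off the cysteines of proteins anchored to membranes. Control cells received a lentivirus with a scrambled RNA, shAPT1 cells a lentiviral short hairpin RNA against APT1 with 72 hours of puromycin selection, and APT1wt cells a lentivirus carrying the wild-type APT1 plasmid. All were grown in DMEM with 10% serum, and each group had 3 libraries. The promoter of the APT1wt construct, the number of clones and an empty vector for the overexpression are not given in the sources used here, so the scrambled RNA served as control for both lines. Nothing in the labels ties the libraries to separate cultures, and p-values therefore reflect only how far these samples spread, which can be technical.

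Each library held between 12381931 and 18667383 estimated reads, and between 14181 and 15188 genes reached 10 reads. LYPLA1 stood at 87.1, 92.7 and 80.5 TPM (a share of the library corrected for transcript length) in control, at 38.3, 30.5 and 36.7 in shAPT1 and at 169, 171 and 170 in APT1wt, in the order of replicates 1 to 3 used throughout. VIM, CD44, EGFR, KRT18, KRT8 and CAV1, markers of the line, were present at 45.3 to 2370 TPM, while ESR1 and PGR did not exceed 0.219 TPM. ERBB2, listed with ESR1 and PGR as a low marker, lay at 27.5 to 37.3 TPM. Of the leukocyte, fibroblast and endothelial markers, PTPRC, CD3E, ITGAM, PDGFRA, VWF and CDH5 did not exceed 0.407 TPM in any library. CD68, a lysosomal gene that is not restricted to leukocytes, lay at 67.4 to 131 TPM and fell in shAPT1 and in APT1wt, and the leukocyte markers summed to 105.2 to 131.8 TPM in control, 67.95 to 88.57 in shAPT1 and 70.49 to 99.23 in APT1wt. The fibroblast and endothelial markers summed to 8.569 to 10.17, 11.68 to 18.08 and 10.55 to 13.51 TPM, and COL1A1, COL1A2 and PDGFRB, 3 of the 4 tested, were higher in shAPT1, and COL1A1 and PDGFRB were higher in APT1wt. The part of these markers in the results was not tested. The libraries hold RNA of whole cultures, so a change in every cell and a change in the share of cells that express a gene cannot be told apart. On scaled read counts, control replicate 1 was the highest control library for 60 of the 79 tested nuclear members and for 13 of the 13 mitochondrial ones. For the mitochondrial ones such an order was not particular to it. Control replicate 2, shAPT1 replicate 3 and APT1wt replicate 2 were each the lowest of their group for 13 of 13. Members that lost a call without control replicate 1 are named with the results.

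Of the 104 members, 92 had enough reads to be tested, among them all 13 mitochondrial genes and 79 of the 91 nuclear ones. The 12 that were not tested had at most 10 reads in any library. They include the tissue-restricted isoforms COX4I2, COX6A2, COX6B2, COX7A1, COX7B2, COX8C and NDUFA4L2, the gene copies UQCRHL, ATP5EP2 and ATP5L2, the readthrough locus NDUFC2-KCTD14 and a second locus carrying the symbol SDHD. COX4I2, COX6A2, COX8C and ATP5EP2 had no read in any of the 9 libraries. The cells therefore carried the common isoform of each pair. COX4I1, the general form of the subunit that COX4I2 replaces in lung, averaged 343 ± 6.8 TPM for control, 346 ± 30 for shAPT1 and 382 ± 17 for APT1wt (SD, n = 3). COX6A1, COX6B1, COX7A2, COX7B and COX8A likewise averaged 432, 205, 346, 104 and 798 TPM in control, against at most 2.15 TPM for any of COX6A2, COX6B2, COX7A1, COX7B2 and COX8C in any library.

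Transcript levels differed between the 2 genomes by orders of magnitude. In control, the 13 mitochondrial mRNAs held 15.4%, 12.4% and 13.5% of all TPM, and the 91 nuclear members held 1.57%, 1.55% and 1.55%. In shAPT1 the mitochondrial share was 14.1%, 15.3% and 11.9%, and in APT1wt 12.6%, 11.7% and 12.6%. The means were 13.8% ± 1.5, 13.8% ± 1.8 and 12.3% ± 0.50, and the groups overlapped. Of all reads, the mitochondrial mRNAs held 5.78% ± 0.77, 5.33% ± 0.67 and 5.07% ± 0.22. By complex, control and shAPT1 averaged 5.43% and 5.19% of TPM for I, 0.451% and 0.463% for III, 4.04% and 3.72% for IV, and 3.85% and 4.39% for V. The nuclear share averaged 1.56% ± 0.013 in control, 1.56% ± 0.044 in shAPT1 and 1.60% ± 0.0088 in APT1wt, with no overlap between control and APT1wt. Shares of TPM add to a whole, so a lower mitochondrial share raises the nuclear one. With mitochondrial genes left out of the total, the nuclear share averaged 1.826%, 1.828% and 1.837%. Over the 9 libraries MT-ATP8 (24310 TPM), MT-ATP6 (14710 TPM) and MT-CO1 (13090 TPM) were the highest members, and COX8A (753.7 TPM), ATP5J2 (738.4 TPM) and COX7C (647.6 TPM) the highest nuclear ones. The lowest tested members were ATP5J2-PTCD1 at 5.61 TPM, ATP5S at 14.1 TPM and NDUFV3, an accessory subunit of the flavin-binding module of complex I, at 34.0 TPM. The median nuclear subunit of complex I lay at 109.8 TPM, below that of complex II (128.9), III (158.4), V (284.1 over 15 genes, without the readthrough locus) and IV (338.9). MT-ATP8 is 207 bases long and shares 46 bases with MT-ATP6, and such a short reading frame within a longer transcript makes its TPM uncertain.

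**Figure D1:**
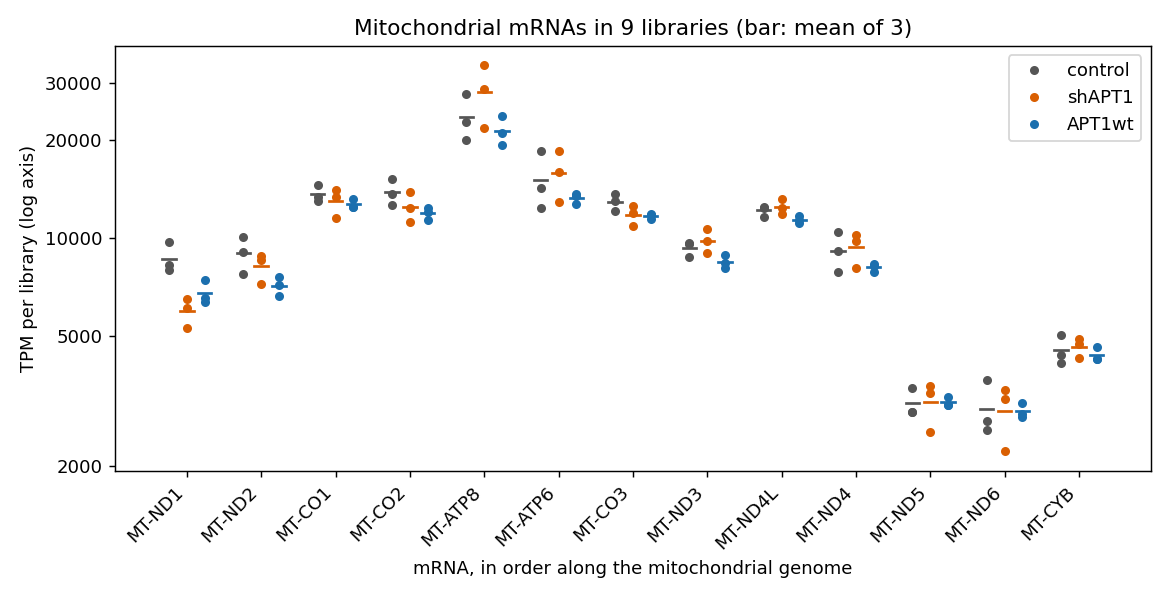
TPM of the 13 mitochondrial mRNAs (log axis) in order along the mitochondrial genome, with 1 point per library and bars at the mean of 3. MT-ND1 lies at 7960 to 9699 TPM in control and at 5293 to 6511 TPM in shAPT1, whereas the points of the other mRNAs overlap between these groups.

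Among the mitochondrial mRNAs, MT-ND1 fell in shAPT1 and the other 12 did not pass the test. MT-ND1 (ENSG00000198888.2; chrM:3307-4262, plus strand, GRCh38) encodes a membrane subunit of complex I next to the site where ubiquinone binds. It stood at 9699, 7960 and 8267 TPM in control, at 6511, 6101 and 5293 in shAPT1 and at 7447, 6367 and 6533 in APT1wt. Every control library lay above every library of the other groups, and shAPT1 and APT1wt overlapped in TPM. On scaled reads every shAPT1 library lay below every APT1wt library. The log2 fold change in shAPT1 was -0.61 ± 0.11 (SE; adjusted p = 8.3e-04, edgeR's quasi-likelihood test with Benjamini-Hochberg adjustment over 15233 genes), or -0.48 (adjusted p = 0.0041) without control replicate 1, and it passed in 22 of 22 other settings. In APT1wt MT-ND1 fell by 0.34 ± 0.11 on the log2 scale (edgeR, adjusted p = 0.029) and lost the call without control replicate 1 (-0.22, adjusted p = 0.14). The direct difference between shAPT1 and APT1wt was -0.26 ± 0.11 (edgeR, adjusted p = 0.082).

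The fall of MT-ND1 also showed within the mitochondrial mRNAs, where depth and total mitochondrial RNA cancel. Its share of the reads assigned to the 13 mRNAs was 8.35%, 8.40% and 8.07% in control, 6.32%, 5.63% and 6.09% in shAPT1 and 7.71%, 7.07% and 7.0% in APT1wt. The 3 groups did not overlap for this share. MT-ND2, the next gene along the genome, held 9.66%, 9.12% and 9.79% in control, 9.49%, 8.81% and 9.24% in shAPT1 and 8.73%, 8.21% and 8.54% in APT1wt. APT1wt lay below the other groups for MT-ND2, while control and shAPT1 overlapped. MT-ND4, a proton-pumping subunit of complex I, held 13.5% ± 0.54 in control and 14.5% ± 0.14 in shAPT1, and MT-CYB, the cytochrome b of complex III, 5.35% ± 0.061 in control, 5.79% ± 0.29 in shAPT1 and 5.80% ± 0.14 in APT1wt. These shares add to a whole, so a lower share of 1 mRNA raises those of the others.

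**Figure D2:**
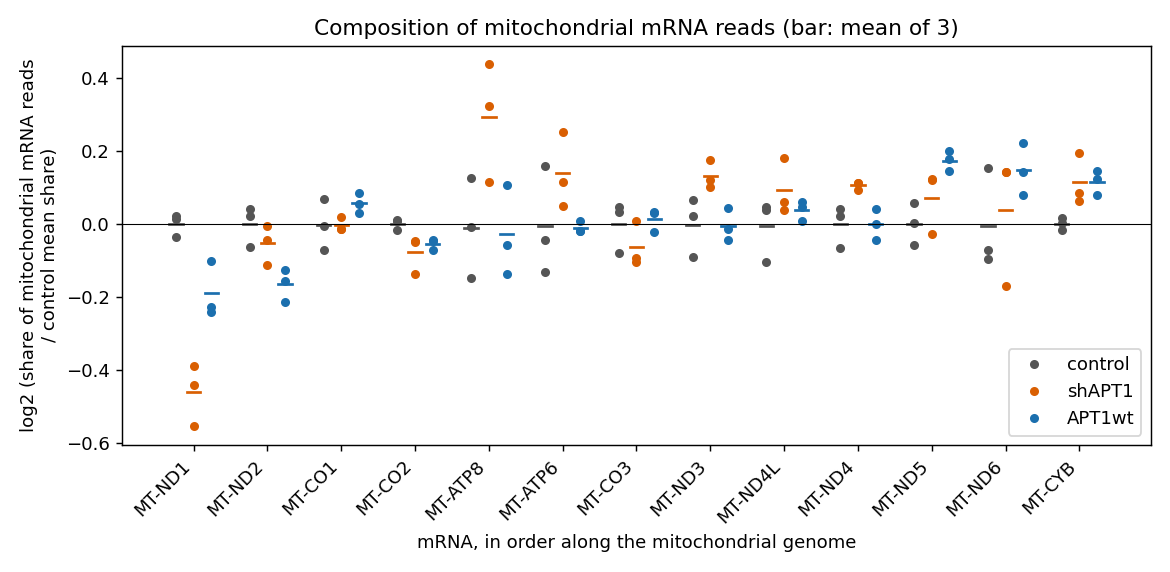
Share of each mitochondrial mRNA among the reads of all 13, as log2 of the ratio to the control mean, with 1 point per library and bars at the mean of 3. MT-ND1, first of the mRNAs in the genome, holds 8.27% on average in control, 6.02% in shAPT1 and 7.26% in APT1wt.

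MT-RNR2, the large ribosomal RNA gene, ends 77 bases before MT-ND1 on the same strand, with a tRNA gene in the gap. It stood at 5252, 4850 and 4585 TPM in control, at 4022, 3669 and 2902 in shAPT1 and at 3869, 3415 and 3655 in APT1wt. It fell in both, with log2 fold changes of -0.54 ± 0.11 (edgeR, adjusted p = 0.0023) and -0.41 ± 0.11 (edgeR, adjusted p = 0.013). MT-RNR1, which precedes it, averaged 1072 ± 93 TPM for control, 1249 ± 146 for shAPT1 and 1050 ± 75 for APT1wt and did not pass. Of the 30 tested genes for the expression of mitochondrial DNA, 1 was higher and 4 were lower in shAPT1, or 5 of 30 called beside 24.4% of all 15233 genes tested (12.8% higher and 11.6% lower). The lower ones were ELAC2 (-0.32 ± 0.07, adjusted p = 0.0051), which cuts tRNAs out of the precursor at their 3' ends, FASTK (-0.34 ± 0.10, adjusted p = 0.027), which binds mitochondrial RNA, MTPAP (-0.28 ± 0.08, adjusted p = 0.016), the mitochondrial poly(A) polymerase, and SSBP1, a single-stranded DNA-binding protein. The list's median log2 fold change of -0.01 lay beside -0.004 for all genes tested.

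MT-ND2 was lower in APT1wt by 0.32 ± 0.11 on the log2 scale (edgeR, adjusted p = 0.048), with 10100, 7774 and 9027 TPM in control and 7589, 6650 and 7170 in APT1wt. The groups overlapped in scaled reads, and the call was lost without control replicate 1 (-0.20, adjusted p = 0.22). It was also lost when reads of nuclear copies were added to the mitochondrial genes (-0.30, adjusted p = 0.060). Such copies (MT pseudogenes) took up reads equal to 8.38% to 11.1% of those of MT-ND2, 15.3% to 17% of those of MT-ATP6, 1.07% to 1.46% of those of MT-ND1 and at most 0.186% for any other mRNA. MTND1P23, a copy of part of MT-ND1 that is identical at 98.1% of aligned bases, also fell, by 0.53 ± 0.16 in shAPT1 (edgeR, adjusted p = 0.024). MTATP6P1 on chromosome 1 is identical to MT-ATP6 at 98.5% of 681 bases. The 120 bases at which they differ most, from base 73 to base 192 of both, show how little separates a mitochondrial read from one of the nuclear copy, with the 4 differing bases in capitals (GRCh38, sequences from GENCODE 29):
MT-ATP6 (chrM:8599-8718, plus strand): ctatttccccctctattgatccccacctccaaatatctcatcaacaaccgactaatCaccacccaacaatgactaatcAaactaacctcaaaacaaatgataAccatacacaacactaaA
MTATP6P1 (chr1:633768-633887, plus strand): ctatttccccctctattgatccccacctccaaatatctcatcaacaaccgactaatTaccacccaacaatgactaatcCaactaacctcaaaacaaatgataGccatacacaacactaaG

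MT-ATP6 and MT-ATP8, which encode the proton channel of ATP synthase and a small partner subunit, did not pass in any comparison. MT-ATP6 stood at 18540, 12400 and 14210 TPM in control, at 15980, 18490 and 12910 in shAPT1 and at 13610, 12730 and 13480 in APT1wt, and all groups overlapped. Its log2 fold changes were -0.00 ± 0.15 and -0.18 ± 0.15. The catalytic core of complex IV, MT-CO1 to MT-CO3, had log2 fold changes of -0.14 to -0.22 in shAPT1 and of -0.09 to -0.21 in APT1wt, with adjusted p from 0.083 to 0.49 by edgeR. MT-ND6, the only mRNA on the other strand, had log2 fold changes of -0.10 ± 0.16 and -0.03 ± 0.16. Without control replicate 1, 8 of the 13 mRNAs had a positive log2 fold change in shAPT1, compared with 1 of 13 with it.

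Knockdown of APT1 was compared with control to see which respiratory genes respond to it. In shAPT1, 16 of the 92 members were lower, 2 were higher and 74 did not pass 0.05. That is 19.6% called, beside 24.4% of all 15233 genes tested, or 11.6% lower and 12.8% higher. The members' median log2 fold change was -0.06, beside -0.004 for all genes, and 65 of 92 lay below 0, or 52 of 92 without control replicate 1. On scaled reads, 22 members lay lower and 8 higher in every shAPT1 library than in every control library, beside 18.4% and 19.5% of all genes (37.9% in either direction). With scaling to library totals alone the counts were 4 higher and 14 lower, and without control replicate 1 they were 2 higher and 9 lower. Calls were spread over complexes I, III, IV and V, and 5 of them passed in each other setting: MT-ND1, NDUFA8, NDUFB2, ATP5G1 and ATP5J2-PTCD1.

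**Figure D3:**
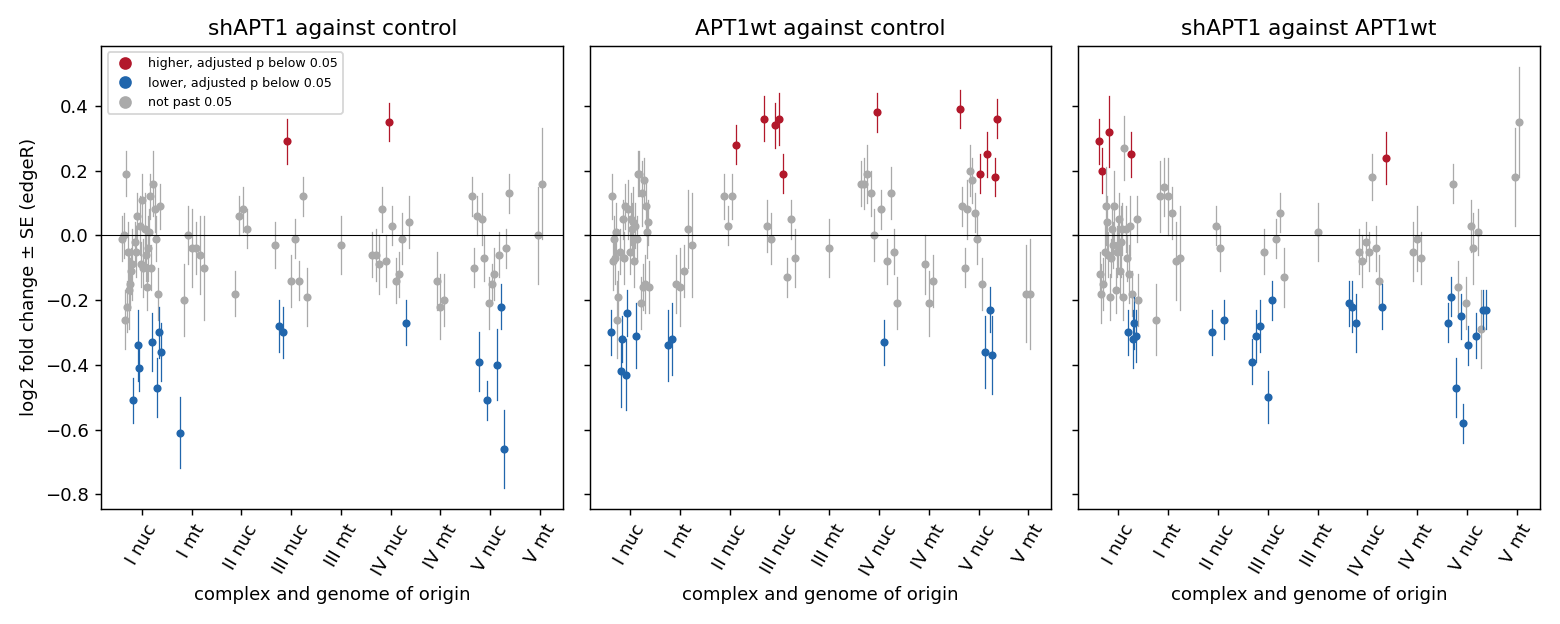
Log2 fold change ± SE from the edgeR fit for the 90 tested members assigned to a complex, by complex and genome of origin (nuc, nuclear; mt, mitochondrial), in each comparison. In APT1wt against control the higher members lie in complexes II to V. In shAPT1 against APT1wt 9 of 15 nuclear subunits of complex V are lower, beside 12.4% of all genes tested.

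Complex I had 7 lower and no higher members among 36 nuclear subunits in shAPT1, or 19.4% beside 11.6% lower of all genes tested. Its peripheral arm carries the flavin and the iron-sulfur clusters that take electrons from NADH. Of the 7 nuclear core genes of this arm 3 fell, or 42.9%. NDUFS7, which binds the last cluster before ubiquinone, went from 85.7, 85.3 and 76.1 TPM to 57.0, 56.5 and 70.3 TPM, with no overlap (-0.47 ± 0.09, edgeR, adjusted p = 0.0023). These values of NDUFS7 are gene totals, and less than 50% of its TPM lay in protein-coding transcripts in every library. Its main coding transcript averaged 15.02 ± 2.21 TPM in control and 13.23 ± 3.87 TPM in shAPT1, a difference within the spread. NDUFS3 went from 96.5, 94.1 and 89.2 TPM to 73.7, 75.8 and 89.1 TPM (-0.33 ± 0.09, edgeR, adjusted p = 0.011). Its groups did not overlap, but shAPT1 replicate 3 came within 0.1 TPM of the lowest control. NDUFV1, which binds NADH and the flavin, was at 135.7, 144.8 and 140.4 TPM in control and at 114.8, 118.1 and 141.2 TPM in shAPT1 (-0.30 ± 0.08, edgeR, adjusted p = 0.020), with overlap in TPM but not in scaled reads.

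Among the accessory subunits of complex I, which surround the core and are needed for its assembly and stability, 4 of 29 fell. That is 13.8%, near the 11.6% lower of all genes tested. NDUFA8, a subunit on the intermembrane side held by disulfide bonds, stood at 101.3, 112.6 and 111.4 TPM in control and at 73.9, 77.0 and 88.7 TPM in shAPT1. The groups did not overlap (-0.51 ± 0.07, edgeR, adjusted p = 2.0e-04). NDUFB2 went from 217.8, 234.0 and 220.2 TPM to 178.6, 172.4 and 176.2 TPM (-0.41 ± 0.07, edgeR, adjusted p = 5.0e-04), and the 3 shAPT1 libraries lay within 7 TPM of each other. NDUFV3 was lower (-0.36 ± 0.09, edgeR, adjusted p = 0.0071), as was NDUFB11 on the X chromosome (-0.34 ± 0.11, edgeR, adjusted p = 0.034). NDUFB11 overlapped between the groups and lost its call without control replicate 1 (-0.21, adjusted p = 0.17), as did NDUFV1 (-0.27, adjusted p = 0.074). With an offset for mean transcript length, NDUFV3 (-0.25, adjusted p = 0.15), NDUFB11 (-0.35, 0.076), NDUFS3 (-0.29, 0.065) and NDUFV1 (-0.23, 0.062) did not pass.

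In complex II none of the 4 nuclear genes passed in shAPT1 by edgeR, with adjusted p from 0.076 to 0.86. SDHA, the flavoprotein that oxidises succinate, had the smallest p there, at 129, 147 and 134 TPM in control and 144, 132 and 139 TPM in shAPT1 (-0.18 ± 0.07 on reads, adjusted p = 0.076). SDHB, the iron-sulfur subunit, was at 112.5 ± 4.4 TPM in control and 131.5 ± 16 TPM in shAPT1, and SDHC, a membrane anchor, at 101.3 ± 3.7 and 105.2 ± 6.4 TPM.

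In complex III, UQCRB rose and UQCR10 and UQCR11 fell, all 3 of them small accessory subunits. UQCRB was at 248.5, 267.2 and 271.8 TPM in control and at 387.6, 303.6 and 321.5 TPM in shAPT1, with no overlap (0.29 ± 0.07, edgeR, adjusted p = 0.012). UQCR11 was at 152.4, 161.8 and 150.9 TPM in control and at 115.7, 145.4 and 131.3 TPM in shAPT1, with no overlap (-0.30 ± 0.08, edgeR, adjusted p = 0.016). UQCR10 fell by 0.28 ± 0.08 on the log2 scale (edgeR, adjusted p = 0.020). Neither UQCR10 (-0.22, adjusted p = 0.094) nor UQCR11 (-0.26, adjusted p = 0.067) passed without control replicate 1.

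In complex IV, the gene totals of COX6C rose and those of COX8A fell. The call of COX6C was lost with protein-coding transcripts alone, where UQCRB was the only member higher in shAPT1. COX6C, a single-pass membrane subunit, was at 348.6, 325.6 and 335.6 TPM in control and at 477.0, 450.2 and 442.7 TPM in shAPT1, with every shAPT1 library above every control (0.35 ± 0.06, edgeR, adjusted p = 9.4e-04). COX8A, a small membrane subunit, was at 808.4, 816.6 and 769.0 TPM in control and at 631.9, 654.6 and 799.1 TPM in shAPT1 (-0.27 ± 0.07, edgeR, adjusted p = 0.015). shAPT1 replicate 3 lay among the controls in TPM, and the call was lost without control replicate 1 (-0.23, adjusted p = 0.067). Of 23 tested loci of 22 assembly factors of complex IV, 5 were lower and none higher in shAPT1, with a median of -0.06, beside 11.6% lower of all genes. SCO2 is counted at both of its loci: ENSG00000284194.1, at 3.00 TPM on average in control, was lower (-1.64 ± 0.51, edgeR, adjusted p = 0.031), and ENSG00000130489.14, at 16.0 TPM, did not pass (-0.20 ± 0.20, edgeR, adjusted p = 0.50). The other lower ones were COX14 (-0.64 ± 0.13, adjusted p = 0.0019), which acts with newly made COX1, COA3 (-0.35 ± 0.09, adjusted p = 0.0080), its partner, COA4 (-0.33 ± 0.07, adjusted p = 0.0029) and COA6.

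In complex V the lower members were ATP5G1, ATP5D, ATP5I and ATP5J2. ATP5G1 (ENSG00000159199.13; chr17:48892765-48895871, plus strand) is 1 of 3 genes for subunit c, which forms the rotating ring; the 3 genes differ in the import signal, which is cut off, and give the same mature protein. ATP5G1 was at 316.7, 309.7 and 285.1 TPM in control, at 235.8, 215.8 and 244.1 in shAPT1 and at 327.9, 304.8 and 316.9 in APT1wt. The shAPT1 libraries lay below all 6 others, and control and APT1wt overlapped (shAPT1 against control -0.51 ± 0.06, edgeR, adjusted p = 4.9e-05). ATP5G2 was at 220.2, 239.1 and 235.2 TPM in control and at 185.6, 202.1 and 240.2 in shAPT1 (-0.21 ± 0.08, edgeR, adjusted p = 0.067), and ATP5G3 at 341.5, 318.4 and 317.1 and at 308.3, 318.9 and 313.5 TPM (-0.15 ± 0.06, edgeR, adjusted p = 0.095). Of the TPM of the 3 genes, ATP5G1 held 36.1%, 35.7% and 34.0% in control, 32.3%, 29.3% and 30.6% in shAPT1 and 34.9%, 33.1% and 34.3% in APT1wt.

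ATP5D, the delta subunit of the central stalk that turns inside the catalytic head, was at 124.2, 120.8 and 117.7 TPM in control and at 85.5, 84.4 and 121.4 TPM in shAPT1 (-0.39 ± 0.09, edgeR, adjusted p = 0.0076). Replicates 1 and 2 of shAPT1 lay well below the controls, and replicate 3 lay among them in TPM. ATP5I, a membrane subunit that takes part in joining 2 ATP synthases into a dimer, was at 321.2, 299.6 and 322.2 TPM in control, at 218.1, 281.8 and 248.1 in shAPT1 and at 229.4, 226.6 and 273.2 in APT1wt. It was lower in both lines, by 0.40 ± 0.11 (edgeR, adjusted p = 0.015) and 0.36 ± 0.11 (edgeR, adjusted p = 0.027) on the log2 scale. Neither held without control replicate 1 (adjusted p = 0.067 and 0.11). ATP5J2 and the readthrough locus ATP5J2-PTCD1 share exons, so reads cannot be divided between them with certainty. ATP5J2-PTCD1 averaged 6.81 ± 0.27 TPM for control, 4.72 ± 0.48 for shAPT1 and 5.30 ± 0.37 for APT1wt, and ATP5J2 averaged 798 ± 64, 734 ± 45 and 683 ± 16 TPM. ATP5J2 was lower by 0.22 ± 0.07 in shAPT1 (edgeR, adjusted p = 0.025) and by 0.23 ± 0.07 in APT1wt (edgeR, adjusted p = 0.021) on the log2 scale. Both calls were lost without control replicate 1 (adjusted p = 0.063 and 0.057), with the offset for transcript length (0.12 and 0.084) and after removal of neighbours' shifts (0.98 and 0.73).

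**Figure D4:**
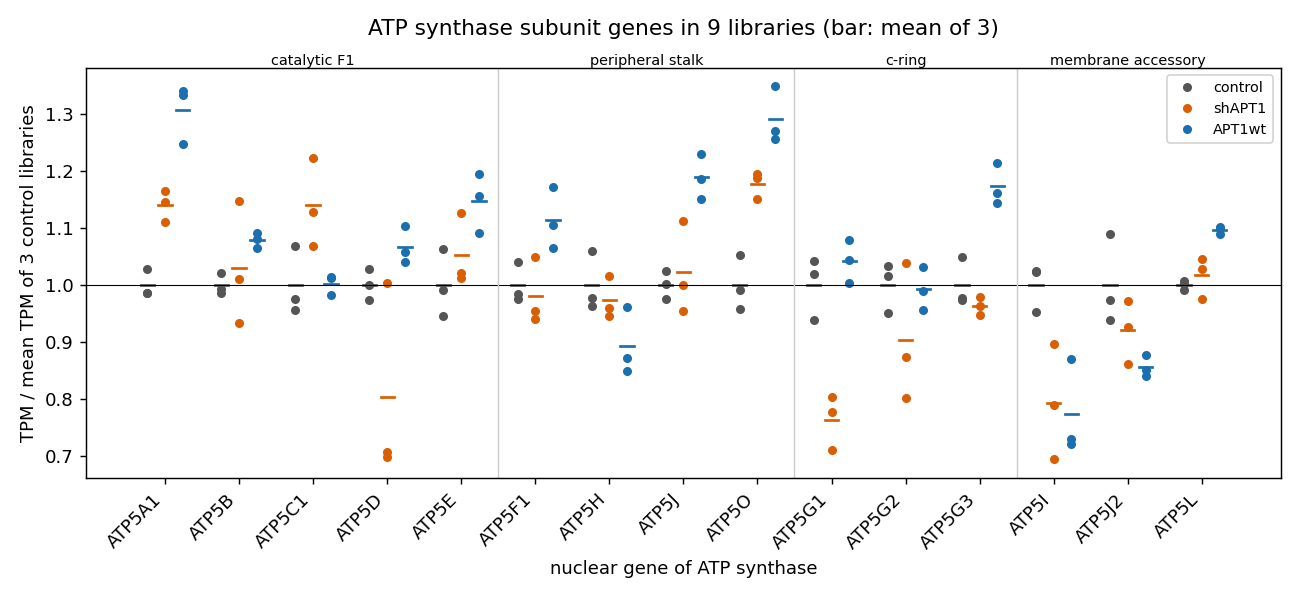
TPM of 15 nuclear ATP synthase genes relative to the mean of the 3 control libraries, by place in the enzyme, with 1 point per library and bars at the mean of 3. ATP5A1, ATP5O, ATP5J, ATP5G3 and ATP5L lie above control in the 3 APT1wt libraries, ATP5G1 lies below control in the 3 shAPT1 libraries, and ATP5I lies below control in both lines.

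Overexpression of APT1 was compared with the same 3 control libraries, which the shAPT1 comparison shares. In APT1wt, 11 of the 92 members were higher, 12 were lower and 69 did not pass, or 25.0% called beside 23.4% of all genes tested (11.8% higher and 11.6% lower). The members' median was 0.00, beside -0.004 for all genes. On scaled reads, 22 members lay higher and 18 lower in every APT1wt library than in every control, beside 22.2% and 22.0% of all genes (44.3% in either direction). Higher calls fell in complexes II to V and none in complex I, whereas 6 of 36 nuclear and 2 of 7 mitochondrial complex I genes were lower; this split was not tested. Without control replicate 1 the counts were 11 higher and 4 lower. Without control replicate 2 or 3 there were 7 higher each, without shAPT1 replicate 1, which enters only through the estimate of the spread, 18 higher. Leaving out control replicate 3 or APT1wt replicate 3 gave 6 lower each, APT1wt replicate 1 gave 7 lower and APT1wt replicate 2 gave 4 lower.

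Complexes II and III had 5 higher and no lower nuclear members. The calls were 25.0% of 4 genes in complex II and 44.4% of 9 in complex III, beside 11.8% higher of all genes tested. SDHD, a membrane anchor of complex II that helps bind ubiquinone, was at 118.6, 134.0 and 129.1 TPM in control, at 138.9, 132.6 and 134.1 in shAPT1 and at 150.3, 159.8 and 148.3 in APT1wt. The APT1wt libraries lay above all 6 others (0.28 ± 0.06 against control, edgeR, adjusted p = 0.0030), and the call passed in 23 of 23 other settings. UQCRC1, a core protein of complex III that faces the matrix, was at 140.8, 156.8 and 152.7 TPM in control, at 131.9, 132.4 and 151.9 in shAPT1 and at 195.1, 190.1 and 173.9 in APT1wt, again above all 6 others (0.36 ± 0.08, edgeR, adjusted p = 0.0057). CYC1, the cytochrome c1 that hands electrons to cytochrome c, was at 210.3, 221.0 and 207.1 TPM in control and at 273.2, 274.9 and 262.4 in APT1wt, with no overlap (0.36 ± 0.07, edgeR, adjusted p = 0.0013).

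UQCRB was higher in APT1wt too, at 346.8, 326.9 and 319.6 TPM (0.34 ± 0.07, edgeR, adjusted p = 0.0046). UQCRC2, the partner of UQCRC1, averaged 104.2 ± 2.2 TPM in control and 136 ± 18 in APT1wt. Its log2 fold change was 0.19 ± 0.06 on reads (edgeR, adjusted p = 0.047) and 0.40 (adjusted p = 0.010) with an offset for mean transcript length, which differs between libraries when other transcripts of the gene are used. The call was lost without control replicate 1 (0.21, adjusted p = 0.060) and after removal of the shift of neighbouring genes, described further on (0.13, adjusted p = 0.23), and it passed in 12 of 23 other settings. UQCRFS1, the Rieske iron-sulfur protein and the lowest member of complex III, stood at 40.8 ± 1.5 TPM in control and 36.8 ± 2.2 in APT1wt (-0.13 ± 0.06, edgeR, adjusted p = 0.16).

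In complex V, 5 nuclear subunit genes were higher and 2 lower of 15, or 46.7% called beside 23.4% of all genes tested. ATP5A1 (ENSG00000152234.15; chr18:46080248-46104334, minus strand), the alpha subunit of the catalytic head, was at 361.4, 346.3 and 346.7 TPM in control, at 409.6, 390.2 and 402.8 in shAPT1 and at 468.4, 470.8 and 438.6 in APT1wt. The 3 groups did not overlap in TPM (APT1wt against control 0.39 ± 0.06, edgeR, adjusted p = 2.9e-04). In shAPT1 the higher TPM stood beside reads that did not pass (0.12 ± 0.06, edgeR, adjusted p = 0.16). ATP5O, at the top of the peripheral stalk that holds the head still, was at 137.9, 151.6 and 142.7 TPM in control and at 194.2, 182.8 and 180.8 in APT1wt, with no overlap (0.36 ± 0.06, edgeR, adjusted p = 7.0e-04).

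ATP5J, another stalk subunit, averaged 204.0 ± 4.9 TPM in control and 242.5 ± 8.2 in APT1wt (0.25 ± 0.07, edgeR, adjusted p = 0.018). ATP5G3 rose from 325.7 ± 14 to 382.2 ± 12 TPM (0.19 ± 0.06, edgeR, adjusted p = 0.033) and ATP5L from 471.2 ± 3.5 to 516.7 ± 3.4 TPM (0.18 ± 0.06, edgeR, adjusted p = 0.036). ATP5B, the beta subunit that carries the catalytic sites, stood at 513.6, 496.0 and 499.8 TPM in control and at 548.9, 543.2 and 535.3 in APT1wt and did not pass on reads (0.09 ± 0.06, edgeR, adjusted p = 0.31). ATP5A1 and ATP5O passed in 23 of 23 other settings, ATP5J in 19, ATP5G3 in 17 and ATP5L in 13.

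Of the 12 lower members in APT1wt, 6 were accessory subunits of complex I, or 20.7% of the 29 tested, beside 11.6% lower of all genes. NDUFA7 was at 48.9, 46.2 and 50.8 TPM in control and at 37.5, 34.5 and 37.1 in APT1wt, with no overlap (-0.42 ± 0.11, edgeR, adjusted p = 0.014). NDUFA8 was at 85.2, 85.9 and 88.2 TPM (-0.32 ± 0.07, edgeR, adjusted p = 0.0065), below all controls as in shAPT1. NDUFB11 (-0.43 ± 0.11, edgeR, adjusted p = 0.011) and NDUFA1 (-0.30 ± 0.07, edgeR, adjusted p = 0.0065), both on the X chromosome, and NDUFC1 (-0.31 ± 0.10, edgeR, adjusted p = 0.043) and NDUFB2 were also lower. Without control replicate 1, NDUFA7 (adjusted p = 0.051), NDUFB11 (0.061), NDUFC1 (0.13) and NDUFB2 (0.052) did not pass, while NDUFA8 and NDUFA1 did. COX7A2L, which joins complexes III and IV into a supercomplex, was at 146.3, 140.9 and 141.3 TPM in control, at 134.6, 137.9 and 133.6 in shAPT1 and at 107.2, 115.1 and 117.3 in APT1wt, lower than all 6 others (-0.33 ± 0.07, edgeR, adjusted p = 0.0027).

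The shAPT1 and APT1wt lines were then compared with each other, a comparison that uses no control library except through the shared estimate of the spread. Of the 92 members, 24 were lower and 5 higher in shAPT1, or 31.5% called beside 25.1% of all genes tested (12.4% lower and 12.7% higher). The members' median was -0.07, beside 0.001 for all genes, and 32 lay lower and 9 higher in every library, beside 19.2% and 20% of all genes (39.2% in either direction). With scaling to library totals alone, which moved the median of all genes to 0.06, the counts were 8 higher and 14 lower. None of the 13 mitochondrial genes passed by edgeR (adjusted p from 0.082 to 0.98), but MT-ND1 did without control replicate 1 (-0.26, adjusted p = 0.043). Without APT1wt replicate 1 there were 1 higher and 14 lower, without shAPT1 replicate 2 there were 1 higher and 16 lower, and without APT1wt replicate 2 there were 1 higher and 18 lower. Leaving out control replicate 2 or 3 gave 3 higher each.

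Complex V had 9 lower of 15 nuclear subunits in this comparison. ATP5G1 differed most (-0.58 ± 0.06, edgeR, adjusted p = 1.4e-05), with 215.8 to 244.1 TPM in shAPT1 and 304.8 to 327.9 in APT1wt. ATP5D was at 84.4 to 121.4 TPM in shAPT1 and at 125.8 to 133.3 in APT1wt, with no overlap (-0.47 ± 0.09, edgeR, adjusted p = 0.0021). ATP5G3, at 308.3 to 318.9 TPM and 372.7 to 395.6 TPM, differed by -0.34 ± 0.06 (edgeR, adjusted p = 0.0010). These 3 and ATP5A1 and ATP5J passed in 23 of 23 other settings. ATP5J (-0.31 ± 0.07), ATP5A1 (-0.27 ± 0.06), ATP5F1 (-0.25 ± 0.07), ATP5L (-0.23 ± 0.06), ATP5O (-0.23 ± 0.06) and ATP5B (-0.19 ± 0.06) had adjusted p of 0.0043 to 0.036 by edgeR. With the length offset ATP5L (adjusted p = 0.081), ATP5O (0.054) and ATP5B (0.20) did not pass.

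Complex III had 5 lower of 9 nuclear members, led by UQCRC1 (-0.50 ± 0.08, edgeR, adjusted p = 4.9e-04) and CYC1 (-0.39 ± 0.07, edgeR, adjusted p = 6.6e-04). UQCR10 (-0.31 ± 0.08, edgeR, adjusted p = 0.012), UQCR11 and UQCRC2 were lower as well. In complex II, SDHA was lower by 0.30 ± 0.07 (edgeR, adjusted p = 0.0067) and SDHD by 0.26 ± 0.06 (edgeR, adjusted p = 0.0043) on the log2 scale. SDHA's TPM overlapped, at 131.8 to 144.1 in shAPT1 and 133.3 to 149.4 in APT1wt, and with the length offset it did not pass (-0.13, adjusted p = 0.22). In complex IV, COX5B, COX5A, COX4I1 and COX8A were lower, by 0.21 to 0.27 on the log2 scale, and NDUFA4, a subunit first assigned to complex I, was higher by 0.24 ± 0.08 (edgeR, adjusted p = 0.029). Of 23 other settings, COX5A passed in 8, COX8A in 10, COX4I1 in 11, COX5B in 15 and NDUFA4 in 17. None of these genes passed with the length offset or after removal of neighbours' shifts.

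In complex I, 4 of 7 nuclear core genes of the peripheral arm were lower and none higher in this comparison, and 4 of 29 accessory genes were higher and none lower. The core calls were 57.1% of their set, beside 12.4% lower of all genes, and the accessory calls 13.8%, beside 12.7% higher. On scaled reads without overlap, 5 of the 29 accessory genes lay higher and 5 lower, beside 39.2% of all genes in either direction. The core genes included NDUFS7 (-0.32 ± 0.09, edgeR, adjusted p = 0.023), NDUFV1 (-0.31 ± 0.08, edgeR, adjusted p = 0.015) and NDUFS8 (-0.27 ± 0.08, edgeR, adjusted p = 0.032). The higher accessory genes were NDUFA7 (0.32 ± 0.11, edgeR, adjusted p = 0.045), NDUFA1 (0.29 ± 0.07, edgeR, adjusted p = 0.0072), NDUFS5 (0.25 ± 0.07, edgeR, adjusted p = 0.020) and NDUFA12 (0.20 ± 0.07, edgeR, adjusted p = 0.042). For NDUFA7 the call was lost without control replicate 1 (adjusted p = 0.051). After removal of neighbours' shifts NDUFS7 (-0.05), NDUFS8 (-0.10), NDUFV1 (-0.14), NDUFA1 (-0.03) and NDUFA12 (0.05) did not pass. The difference between the roles was not tested.

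Across the comparisons, 49 of the 92 members (53.3%) were called in none, beside 56.7% of all genes tested. A set of 9 was higher in APT1wt than in both other groups without a call between shAPT1 and control: SDHD, UQCRC1, UQCRC2, CYC1, ATP5A1, ATP5G3, ATP5J, ATP5L and ATP5O. This pattern held for 3.24% of all genes, and without control replicate 1 the calls of 8 of the 9 remained, UQCRC2 being the exception. Another 7 were lower in shAPT1 than in both other groups without a call between APT1wt and control: ATP5G1, ATP5D, COX8A, NDUFS7, NDUFV1, UQCR10 and UQCR11, a pattern of 4.12% of all genes. Without control replicate 1 the calls of ATP5G1, ATP5D and NDUFS7 remained. The 7 members lower in both lines than in control were MT-ND1, NDUFA8, NDUFB2, NDUFB11, ATP5I, ATP5J2 and ATP5J2-PTCD1, and the 2 higher in both were COX6C and UQCRB. Of all genes tested, 3.45% were lower and 3.7% higher in both without a call between the lines. Without control replicate 1 the set of 7 fell to 2, NDUFA8 and ATP5J2-PTCD1, while COX6C and UQCRB remained. These sets rest on control libraries that both comparisons share.

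The position of a gene on its chromosome went with part of these changes. For each nuclear member, 50 tested genes to either side along the chromosome were taken, and their median shift was removed. What remained was tested with limma on log2 scaled reads, not with edgeR. A call lost after removal can therefore also reflect the change of test. COX6C and UQCRB, the only members higher in shAPT1, both lie on chromosome 8, where their neighbours had shifted by 0.26 on the log2 scale, and after removal their log2 fold changes were 0.10 (adjusted p = 0.32) and 0.03 (adjusted p = 0.76). In APT1wt, COX6C, UQCRB and CYC1 on chromosome 8 kept 0.14, 0.09 and 0.14 of their 0.38, 0.34 and 0.36 and did not pass. The X-linked genes NDUFB11 and NDUFA1 had neighbours shifted by -0.50 and -0.34 in APT1wt, and their own values after removal were 0.08 and 0.04. NDUFS7, ATP5D and UQCR11 on chromosome 19 had neighbours shifted by -0.26 to -0.28 in shAPT1 and were left at -0.20, -0.14 and -0.02, none past 0.05.

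Other members changed more than their neighbours. In shAPT1, 9 of the 17 nuclear calls held after removal, among them ATP5G1 (-0.49, adjusted p = 3.5e-05), NDUFA8 (-0.39, adjusted p = 0.0013), NDUFB2 (-0.31, adjusted p = 0.0038) and NDUFS3 (-0.30, adjusted p = 0.015). In APT1wt, 5 of 21 held: UQCRC1 (0.31, adjusted p = 0.0019), ATP5A1 (0.26, adjusted p = 0.0080), ATP5O (0.21, adjusted p = 0.030), SDHD (0.18, adjusted p = 0.038) and NDUFA7 (-0.38, adjusted p = 0.017). Between the lines, 13 of 29 held, among them ATP5G1 (-0.54, adjusted p = 1.9e-05), ATP5A1 (-0.45, adjusted p = 1.2e-04), UQCRC1 (-0.43, adjusted p = 1.4e-04) and CYC1 (-0.21, adjusted p = 0.0088). Of 15162 genes under this setting, 1609 were higher and 1547 lower in shAPT1, beside 1951 and 1768 of 15233 in the edgeR fit. The counts were 1278 and 1107 in APT1wt, beside 1796 and 1772. Between the lines they were 1622 and 1696, beside 1941 and 1888. How many of the same genes held was not counted. The removal also takes out part of a gene's own change where its neighbours change for other reasons.

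**Figure D5:**
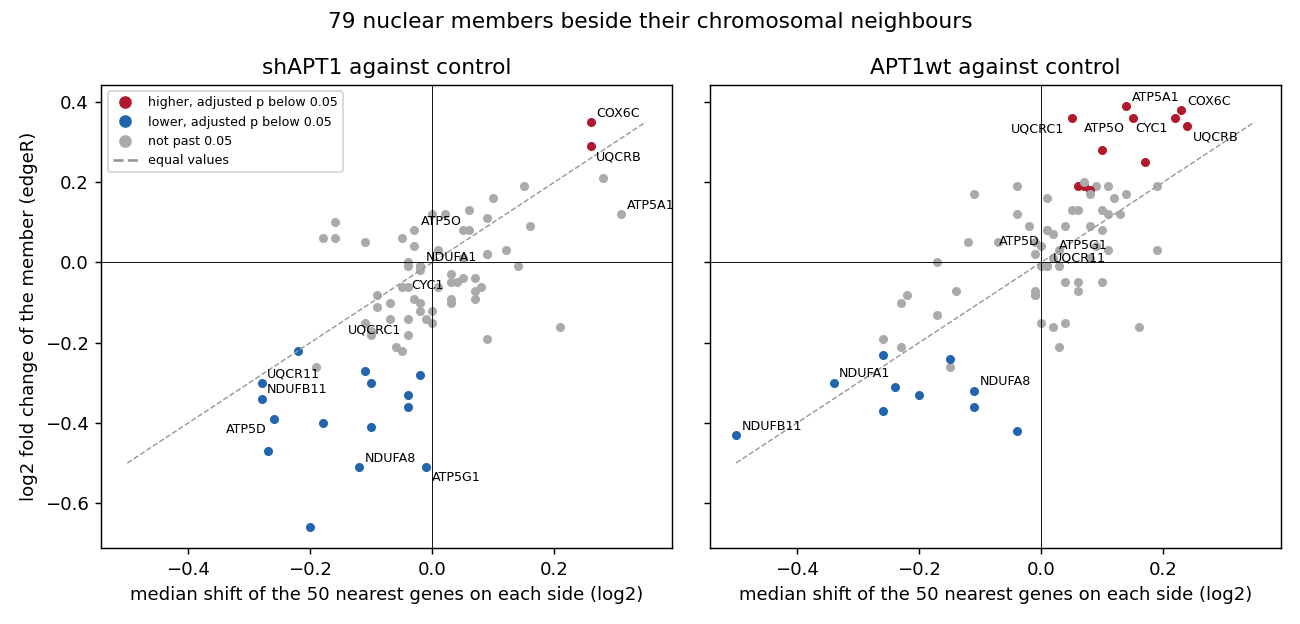
Log2 fold change of each of 79 nuclear members against the median log2 shift of 50 tested genes to either side, with a dashed line where both are equal. COX6C and UQCRB at a neighbour shift of 0.26 in shAPT1 and NDUFB11 at -0.50 in APT1wt lie near the line, while ATP5G1 and NDUFA8 lie well below it in shAPT1.

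Promoters of nuclear respiratory genes are known for sites of the factors NRF1, GABP (which binds the ETS core) and YY1. RefSeq promoters (GRCh38.p14, 250 bases before to 50 after the start) were matched for 64 of the 79 tested nuclear members and searched on both strands. The NRF1 motif (GCGC, any 2 bases, GCGC) was found in 25.0% of them and in 8.78% of all 27305 promoters, CCGGAAG (ETS) in 29.7% and 10.7%, AANATGGCG (YY1) in 25.0% and 3.37%, and GGGCGGG (SP family) in 26.6% and 32.9%. The 31 matched members called in any comparison and the 33 called in none held them in 29% and 21.2% (NRF1), 32.3% and 27.3% (ETS), 22.6% and 27.3% (YY1) and 16.1% and 36.4% (SP). The 250 bases before the start are shown for ATP5G1, the nuclear subunit gene whose fall in shAPT1 had the smallest p, and for 4 genes higher in APT1wt beyond their neighbours. Matches to any of the 4 motifs are in capitals, on either strand and without overlap between motifs:
ATP5G1 promoter (chr17:48892537-48892786, plus strand): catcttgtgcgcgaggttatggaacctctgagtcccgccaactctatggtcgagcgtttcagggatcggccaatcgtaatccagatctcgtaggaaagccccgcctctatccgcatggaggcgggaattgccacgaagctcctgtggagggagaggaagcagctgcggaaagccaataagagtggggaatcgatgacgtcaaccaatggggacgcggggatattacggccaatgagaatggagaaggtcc
ATP5A1 promoter (chr18:46104228-46104477, minus strand): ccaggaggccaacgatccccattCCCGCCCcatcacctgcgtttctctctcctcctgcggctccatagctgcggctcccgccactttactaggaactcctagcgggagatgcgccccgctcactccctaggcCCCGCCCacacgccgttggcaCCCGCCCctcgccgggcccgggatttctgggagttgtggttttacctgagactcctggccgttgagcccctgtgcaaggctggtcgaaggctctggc
ATP5O promoter (chr21:33915805-33916054, minus strand): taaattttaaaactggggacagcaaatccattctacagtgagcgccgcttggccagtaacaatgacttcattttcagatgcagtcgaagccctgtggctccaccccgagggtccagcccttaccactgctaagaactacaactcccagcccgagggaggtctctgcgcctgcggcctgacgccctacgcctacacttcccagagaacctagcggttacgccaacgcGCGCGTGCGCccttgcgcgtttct
UQCRC1 promoter (chr3:48609647-48609896, minus strand): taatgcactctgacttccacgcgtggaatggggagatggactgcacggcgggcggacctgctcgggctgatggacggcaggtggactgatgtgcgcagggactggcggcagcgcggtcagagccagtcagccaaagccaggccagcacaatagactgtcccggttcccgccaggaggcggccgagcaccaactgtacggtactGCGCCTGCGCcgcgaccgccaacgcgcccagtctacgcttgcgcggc
SDHD promoter (chr11:112086623-112086872, plus strand): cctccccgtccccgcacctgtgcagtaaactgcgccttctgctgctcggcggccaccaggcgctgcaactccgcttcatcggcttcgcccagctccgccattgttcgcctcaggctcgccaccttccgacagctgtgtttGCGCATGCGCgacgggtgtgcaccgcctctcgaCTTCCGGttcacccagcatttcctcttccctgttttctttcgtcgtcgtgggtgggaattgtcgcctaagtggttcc

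These windows differed in what they held. ATP5G1 had none of the 4 motifs in its 300 bases, ATP5A1 had 3 SP matches, ATP5O 1 NRF1 match, UQCRC1 1 NRF1 match and 1 YY1 match at base 23 after the start (not shown), and SDHD 1 NRF1 and 1 ETS match. The capitals mark letters, not measured binding.

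Of 10 tested nuclear regulators of these genes, 3 were lower and none higher in shAPT1 (median -0.17), and 2 were higher and none lower in APT1wt (median 0.01). Of all genes, 11.6% were lower in shAPT1 and 11.8% higher in APT1wt. PPARGC1B, a coactivator that drives mitochondrial genes, had a mean of 2.69 TPM in control cells, with 1.83 for shAPT1 and 3.22 for APT1wt. It was lower in shAPT1 (-0.50 ± 0.10, edgeR, adjusted p = 0.0020), higher in APT1wt (0.34 ± 0.09, edgeR, adjusted p = 0.016), and differed between the lines by -0.84 ± 0.10 (edgeR, adjusted p = 2.5e-05). ESRRA, the nuclear receptor it binds, was lower in shAPT1 (-0.40 ± 0.10, edgeR, adjusted p = 0.0097), as was PPRC1, a related coactivator (-0.21 ± 0.06, edgeR, adjusted p = 0.016). YY1 was higher in APT1wt on reads (0.37 ± 0.06, edgeR, adjusted p = 6.6e-04) though its TPM averaged 87.8 in control and 89.2 in APT1wt.

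Calls among the assembly factors, carriers and citric acid cycle genes are to be read beside 24.4% of all genes in shAPT1 and 23.4% in APT1wt. Of 16 complex I assembly factors 2 were higher and 1 lower in shAPT1 and none passed in APT1wt by edgeR. SDHAF3, which helps mature the iron-sulfur subunit of complex II, fell in both lines, from 33.6 TPM on average to 23.5 in shAPT1 (-0.57 ± 0.09, edgeR, adjusted p = 3.4e-04) and 19.2 in APT1wt (-0.69 ± 0.09, edgeR, adjusted p = 7.4e-05). The complex IV factors COA4 (-0.49 ± 0.07, adjusted p = 1.3e-04), COX19 (-0.39 ± 0.11, adjusted p = 0.022), COA3 (-0.37 ± 0.09, adjusted p = 0.0066) and COA6 (-0.35 ± 0.09, adjusted p = 0.011) were among 6 lower and none higher of the 23 loci in APT1wt (edgeR, median -0.09), beside 11.6% lower of all genes. FMC1, an assembly factor of ATP synthase, was lower in APT1wt (-1.08 ± 0.18, edgeR, adjusted p = 7.2e-04), with a mean of 15.7 TPM in APT1wt. CYCS, cytochrome c itself, fell from 239 to 184.5 TPM in APT1wt (-0.32 ± 0.10, edgeR, adjusted p = 0.027), and was at -0.04 (adjusted p = 0.81) after removal of the neighbours' shift. COQ4, needed to make ubiquinone, was lower in both lines (-0.54 ± 0.08 and -0.33 ± 0.08, edgeR, adjusted p = 3.3e-04 and 0.011).

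In the citric acid cycle, which feeds the chain, 1 of 14 genes was higher and 2 lower in shAPT1, and 3 were higher and 5 lower in APT1wt (median -0.11 in each). SUCLA2, a subunit of succinate-CoA ligase, had a mean of 38.6 TPM in control cells, 52.3 in shAPT1 (0.36 ± 0.11, edgeR, adjusted p = 0.022) and 66.4 for APT1wt (0.85 ± 0.10, edgeR, adjusted p = 4.1e-05). After removal of the neighbours' shift the values were 0.05 (adjusted p = 0.70) and 0.23 (adjusted p = 0.055).

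Gene totals include transcripts that encode no protein. In 9 of the 92 tested members less than 50% of TPM lay in protein-coding transcripts in every library. These were NDUFA9, NDUFA10, NDUFS7, UQCR11, COX6C, COX7B, ATP5L, ATP5F1 and ATP5S. ATP5F1, a peripheral stalk subunit, had 9.29% to 17.9% there, and its main transcript was ENST00000369721.8, annotated as a processed transcript of 1040 bases. For ATP5L, ENST00000529460.1 of 457 bases held 64.9% of the TPM, at 302.6 ± 2.6 TPM in control and 339 ± 21 in APT1wt, and its main coding transcript, ENST00000300688.7, stood at 75.0 ± 1.8 and 89.5 ± 3.5 TPM. For COX6C, ENST00000522934.5, annotated as a target of nonsense-mediated decay, averaged 190.2 ± 19 TPM for control, 270.4 ± 50 for shAPT1 and 256.6 ± 21 for APT1wt, and the main coding transcript ENST00000517682.6 averaged 94.2 ± 33, 141.4 ± 70 and 116.6 ± 19 TPM. Short annotated transcripts share their sequence with longer ones, so the division among them is an estimate.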

How the data were processed

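Total RNA of 9 samples was sequenced. Per the submitters' processing notes the authors used FastQC, Salmon and DESeq2 with build GRCh38.p10, without versions; the selection of RNA for the libraries is not given in the sources used here. The deposited Salmon files hold estimated counts and TPM for 199324 transcripts of 58219 genes. A further deposited table gives 1 signal per gene and library, whose scaling by the authors is not given in the sources used here (column sums 14557704 to 15505929); it served as an alternative.

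Estimated counts were summed per gene and rounded. Genes were kept by filterByExpr, scaled by TMM and fitted over all 9 libraries with edgeR 4.0.16 (quasi-likelihood, R 4.3.3), with Benjamini-Hochberg adjustment over 15233 genes and a threshold of 0.05. Adjusted p-values in the text come from that fit or, where a setting is named, from the same fit under it. Those after removal of neighbours' shifts are the exception. They come from limma's moderated test on log2 scaled reads over 15162 genes, so that setting changes the test as well. Levels are TPM summed per gene, as mean ± SD. With 3 libraries a group an exact permutation test cannot go below 0.1, so none was used. Positions came from GENCODE 29. Tables and figures used Python 3.11.15, pandas 2.3.3 and matplotlib 3.10.9, alternatives also limma 3.58.1 and DESeq2 1.42.0. The fit was tested on simulated counts.

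Members, lists and most tests were chosen with earlier results of these data known. Named for level were the mitochondrial mRNAs, complex II, isoform sets and the 3 highest and lowest members; named for change were members past 0.05 with an absolute log2 fold change of at least 0.3, the smallest p in a complex without one, members called between the lines with opposite signs against control, and up to 4 members past 0.05 of each list. Other members past 0.05 were named after their values were seen, and a result that the rule would name is not reported here. Alternatives were other scalings, filters and tools, a transcript length offset, protein-coding transcripts alone, added pseudogene reads, the deposited table, fewer groups, a replicate block, removal of neighbours' shifts and leaving out each library.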

Additional observations from a re-analysis of the deposited data

How the results depend on the processing

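Counts of members called (higher and lower) were within 1.5 times those reported under the settings not named here. For shAPT1 against control, reported as 2 and 16, library totals alone gave 4 higher, protein-coding transcripts alone 1 higher, the length offset 8 lower and the deposited signal 9 lower. For APT1wt against control, reported as 11 and 12, fitting only the groups compared gave 18 higher and removal of neighbours' shifts 6 higher and 2 lower, while the length offset and the deposited signal each gave 5 lower. For shAPT1 against APT1wt, reported as 5 and 24, library totals gave 8 and 14, DESeq2 3 higher, the length offset 1 and 10, the deposited signal 1 and 11, fitting only the groups compared 3 higher and removal of neighbours' shifts 2 higher. The cause was not tested, except that the removal covers 79 nuclear members only and uses limma in place of edgeR. Leaving out 1 library gave 2 to 3 higher and 9 to 20 lower in shAPT1, 7 to 18 higher and 4 to 15 lower in APT1wt, and 1 to 7 higher and 14 to 25 lower between the lines. A replicate block gave 2 and 17, 11 and 11, and 5 and 23. In deviations from group means, same-numbered libraries correlated at -0.0509 to 0.103 and other pairs at -0.105 to 0.0712. Of 9 libraries, 5 correlated best with their own number. Such weak values cannot tell whether same-numbered libraries share a culture or batch, and the replicate marks in the labels are not explained.

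The TPM share of nuclear members in control, shAPT1 and APT1wt was 1.281%, 1.269% and 1.302% from protein-coding transcripts alone and 1.826%, 1.828% and 1.837% without mitochondrial genes in the total. Of 3825 values of the 56 named members under other settings, 3469 kept direction or side of the threshold, 303 lost and 46 gained a call, and 7 reversed, each after removal of neighbours' shifts: ATP5A1 (-0.19) and ATP5J2 (0.004) in shAPT1, NDUFA1 (0.038), NDUFB11 (0.079) and ATP5J2 (0.038) in APT1wt, and NDUFA1 (-0.029) and UQCR11 (0.004) between the lines. The 12 untested members had at most 10 reads in any library.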
